A study of Mus musculus with 6 samples.

Results

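Expression of 38 genes of blood and lymph vessels was followed in 6 mouse breast tumors, out of 18460 genes listed in at least 1 tumor. The genes were chosen by name for their roles in endothelium and vessel growth, and all 38 were listed. The 3 test tumors came from K14-TSLPtg;PyMTtg;Rag1KO mice and the 3 control tumors from PyMTtg;Rag1KO mice, all Balb/c. Mice of both groups carried the PyMT oncogene under the mammary MMTV promoter, which gives spontaneous mammary tumors, lacked *Rag1* and with it their own T and B cells, and received CD4+ T cells at 4 weeks of age. Tumors were collected at endpoint, at week 18 to 20. The groups differed by the transgene for thymic stromal lymphopoietin (TSLP), a cytokine of epithelial barriers, which the keratin 14 promoter drives in keratinocytes. The comparison asks how vessel genes in whole tumors differed with the TSLP transgene. As all 6 mice received CD4+ T cells, effects of TSLP through T cells and through other cells cannot be told apart.

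Endothelial cells line blood and lymph vessels and hold together through junction proteins such as VE-cadherin and PECAM1. Vascular endothelial growth factors (VEGFs) drive sprouting through receptor tyrosine kinases, angiopoietins tune vessel stability through the TIE receptors, and ETS and SOX transcription factors maintain endothelial identity. Several genes of this kind are not particular to endothelium. *Pdpn* and *Eng* are also known from stromal cells and *Ets1* from lymphocytes, so a whole tumor mixes their sources.

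Total expected counts ran from 8373390 to 9449565 per tumor. Values are given as CPM, counts scaled to library sizes corrected by the TMM method, listed in the order of replicates 1, 2 and 3 of a group, and 13706 genes passed the filter on low counts. Control replicate 2 stood apart from its group. Its log2 expression had a Pearson correlation across genes, which are not independent replicates, of 0.867 and 0.902 with the other control tumors and of 0.916 to 0.93 with the test tumors. *Tslp* was at 0.231, 0.216 and 0.32 CPM in the control group and 1.38, 0.854 and 0.212 CPM in the test group. It did not pass the filter on low counts and its groups overlapped. The transgene could thus not be checked in test replicate 3, which held 2 counts, and only weakly in test replicates 1 and 2, with 12 and 7 counts. *Krt14*, the keratin 14 gene, was at 15.6, 57.3 and 100.9 CPM in the control group and 43.7, 118.6 and 117.1 CPM in the test group. *Rag1* was at 0.433 to 3.12 CPM in both groups together, and the labels do not state which part of the gene is deleted.

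No gene reached an adjusted p of 0.05 in the quasi-likelihood test of edgeR, adjusted by Benjamini-Hochberg (0.0% of 13706 genes), and the lowest adjusted p of any gene was 0.394. At an unadjusted p under 0.05, 721 genes were lower in the test tumors (5.26%) and 432 were higher (3.15%). DESeq2, run without that filter on low counts, called 344 of 18436 genes. Of the 38 vessel genes 35 were tested, and *Sox17*, *Sele* and *Prox1* did not pass the filter. None of the 35 reached the adjusted threshold, and 3 were lower at an unadjusted p under 0.05 and 0 were higher. DESeq2 called 2 of the 38 vessel genes, *Ets1* and *Pdpn*, beside its 344 of 18436 genes. In either direction 8.57% of the vessel genes had an unadjusted p under 0.05, close to the 8.41% of all tested genes. The groups did not overlap for 1 vessel gene lower in the test tumors and for 0 higher, beside 5.86% and 6.12% of all tested genes. Fold changes were positive for 16 genes and negative for 19, with a median log2 fold change of -0.06 against 0.02 for all tested genes. All log2 fold changes are test minus control.

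*Ets1*, *Eng* and *Pdpn* were the vessel genes with the lowest p. The promoters of *Eng* and *Pdpn* are shown because these genes had the lowest p after *Ets1*, for which no window was used here, and that of *Tie1* as an endothelial receptor whose groups overlapped. *Ets1* encodes an ETS-family transcription factor, a family that binds DNA at a GGAA core. Promoter windows of 300 bases, from 250 bases before to 50 bases after a transcription start, were taken from RefSeq on GRCm38.p6, which held 25 windows for 20 of the 38 genes. The 3 windows below lie at chr2:32646345-32646644 on the plus strand for *Eng*, at chr4:143299515-143299814 on the minus strand for *Pdpn* and at chr4:118489800-118490099 on the minus strand for *Tie1*. Capitals mark matches to GGAAGT on either strand, so that a match on the opposite strand reads ACTTCC.
Eng: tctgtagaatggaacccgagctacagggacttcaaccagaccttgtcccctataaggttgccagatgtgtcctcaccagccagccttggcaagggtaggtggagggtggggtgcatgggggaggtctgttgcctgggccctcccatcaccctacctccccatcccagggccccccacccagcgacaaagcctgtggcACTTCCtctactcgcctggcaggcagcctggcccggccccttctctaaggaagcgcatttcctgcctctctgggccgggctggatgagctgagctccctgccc
Pdpn: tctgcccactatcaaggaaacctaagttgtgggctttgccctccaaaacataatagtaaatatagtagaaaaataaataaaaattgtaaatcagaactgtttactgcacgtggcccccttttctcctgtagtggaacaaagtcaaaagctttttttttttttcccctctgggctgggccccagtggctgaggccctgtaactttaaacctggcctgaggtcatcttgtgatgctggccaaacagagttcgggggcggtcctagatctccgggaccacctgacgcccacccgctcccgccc
Tie1: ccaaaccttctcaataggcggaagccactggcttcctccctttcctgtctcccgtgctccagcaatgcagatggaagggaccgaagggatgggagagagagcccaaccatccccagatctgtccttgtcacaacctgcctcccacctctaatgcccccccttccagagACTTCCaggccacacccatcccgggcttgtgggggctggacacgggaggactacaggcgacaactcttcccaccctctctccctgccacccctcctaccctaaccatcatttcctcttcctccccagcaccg
The windows of *Eng* and *Tie1* each held 1 match and the window of *Pdpn* held 0. Over all 32851 windows 23.8% held GGAAGT, beside 7 of the 25 windows of vessel genes, from *Egfl7*, *Eng*, *Flt1*, *Kdr*, *Selp* and *Tie1*. A longer word, AACAGGAA, which shares the GGAA core and can overlap GGAAGT, was in 2.6% of all windows and in 2 vessel windows, from *Egfl7* and *Emcn*. Both searches covered both strands, and a match is a description of these letters.

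*Ets1* (NCBI Gene 23871, chr9:32636241-32757820) was lower in every test tumor than in every control tumor. It was at 133.1, 57.2 and 78.5 CPM in the control group and 21.4, 20.9 and 41.3 CPM in the test group. The group means were 89.6 ± 39.1 CPM in the control group and 27.9 ± 11.6 CPM in test tumors (SD, n = 3 each), a 3.22-fold lower mean. The log2 fold change was -1.68 ± 0.42 (SE), with an unadjusted p of 0.0043 and an adjusted p of 0.394 (edgeR). An exact permutation test, two-sided, gave p = 0.1, the smallest that 3 against 3 tumors allow. The fold change kept its sign when any tumor was left out, between -2.07 and -1.29.

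*Eng* (NCBI Gene 13805, chr2:32646595-32682669), which encodes endoglin, a co-receptor for TGF-beta and BMP ligands, was high in part of the control group. Its level was 244.9, 29.5 and 115.8 CPM in the control group and 17.6, 37.2 and 37.1 CPM in the test group. Control replicates 1 and 3 lay above all test tumors, and control replicate 2 lay between them, so the groups overlapped. The log2 fold change was -2.08 ± 0.70 (SE), with an unadjusted p of 0.019 and an adjusted p of 0.483 in edgeR's test. Without control replicate 1 it was -1.25 with an unadjusted p of 0.072, and without control replicate 2 it was -2.55 with an adjusted p of 0.058. The annotated body of *Eng* ends at chr2:32682669 and that of *Fpgs* begins at chr2:32682609, so they share only a short stretch. Since the use of strand in counting is not stated, reads of that stretch could belong to either gene.

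*Pdpn* (NCBI Gene 14726, chr4:143267409-143299564), which encodes podoplanin, a surface mucin of lymphatic endothelium that stromal cells also carry, was also high in control replicates 1 and 3. It was at 154.8, 22.0 and 207.1 CPM in the control group and 19.7, 30.6 and 24.5 CPM in the test group. The 2 high control tumors exceeded every test tumor, while control replicate 2 fell within the test range. The log2 fold change was -2.36 ± 0.71 (SE), with an unadjusted p of 0.011 and an adjusted p of 0.454 in edgeR's test. Without control replicate 2 it was -2.86 with an adjusted p of 0.0167, the only one of the 38 among the 182 of 14166 genes then called. By FPKM, which corrects for length and so allows genes to be compared, *Pdpn* and *Eng* had the highest means over the 6 tumors of the 38 genes, 43.0 and 22.6, and *Ets1* the seventh highest, 11.4.

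**Figure D1:**
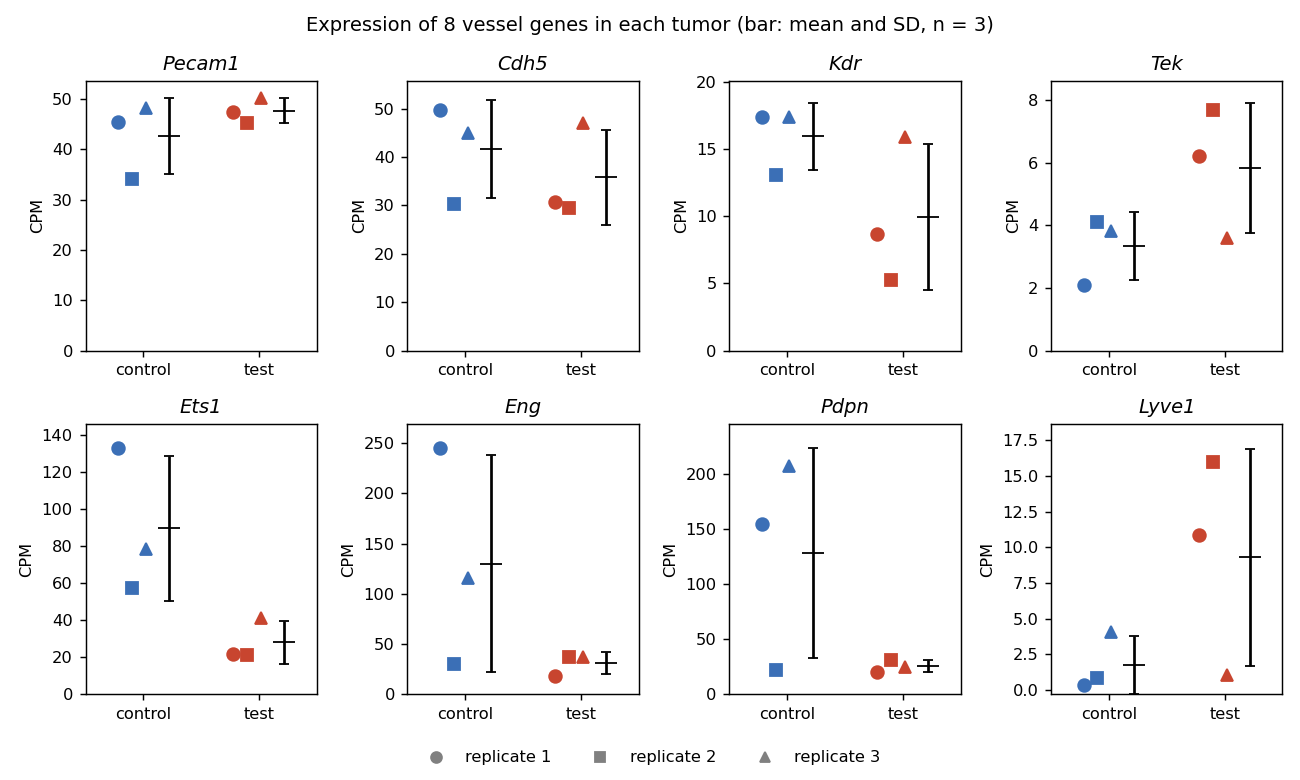
CPM of 8 vessel genes in each tumor, with control tumors in blue, test tumors in red, the replicate number as symbol, and the mean and SD of 3 tumors as a black bar. *Ets1* lies at 57.2 CPM or more in control and 41.3 CPM or less in test tumors, control replicate 2 falls among the test tumors for *Eng* and *Pdpn*, and *Pecam1* lies between 34.2 and 50.2 CPM in all tumors.

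Markers of other cell types were set beside these genes. The summed CPM of 6 epithelial markers was 2137, 3985 and 1820 in the control group and 5248, 5225 and 5517 in the test group, higher in test in 9 of 9 pairs of tumors. All 6 epithelial markers had positive fold changes, 3 of them with an unadjusted p under 0.05, beside 3.15% of all tested genes. Control replicate 2 was the control tumor with the highest epithelial sum and the lowest levels of *Ets1*, *Eng* and *Pdpn*. The sum of 5 leukocyte markers was 251.8, 139.6 and 277.9 CPM in the control group and 97.6, 185.8 and 197.7 CPM in the test group. Fibroblast markers, a list of 6 genes, ran from 967 to 2948 CPM in the control group and from 1161 to 4971 CPM in test tumors, so that their ranges overlapped. The sum of 6 macrophage markers ran from 209.5 to 465.3 CPM in the control group and from 219.8 to 422.6 CPM in test tumors. The part of these cell types in the values of *Ets1*, *Eng* and *Pdpn* was not tested. In whole tumors, fewer cells of a type and less RNA per cell cannot be told apart.

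**Figure D2:**
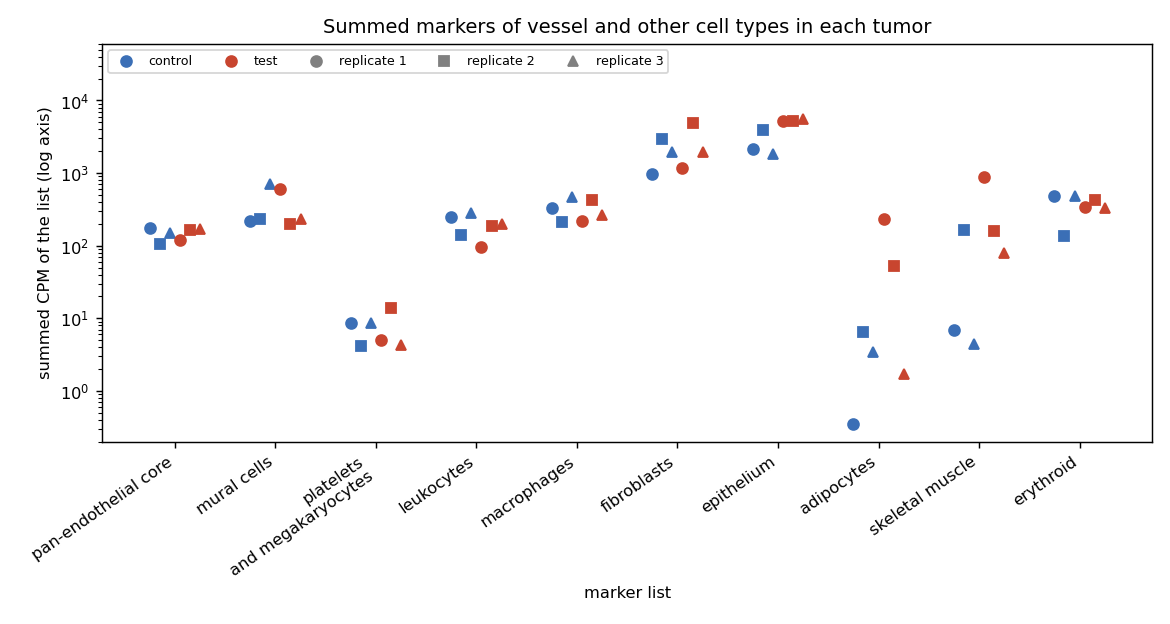
Summed CPM of marker lists in each tumor on a log axis, with control tumors in blue, test tumors in red and the replicate number as symbol. The sum of the 10 pan-endothelial genes lies between 104.9 and 177.4 CPM in all tumors, whereas every test tumor lies above every control tumor for epithelium, and adipocyte markers reach 233.0 and 52.0 CPM in test replicates 1 and 2.

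No pan-endothelial gene differed between the groups beyond the spread between tumors. A core of 10 of the 38 genes (*Pecam1*, *Cdh5*, *Tie1*, *Esam*, *Robo4*, *Clec14a*, *Emcn*, *Icam2*, *Cldn5* and *Egfl7*) summed to 177.4, 104.9 and 150.8 CPM in the control group and 120.4, 164.8 and 167.5 CPM in the test group. The test tumor was higher in 5 of the 9 pairs. All 10 genes had reads in every tumor, 6 had positive and 4 negative fold changes, and none had an unadjusted p under 0.05. Their median log2 fold change was 0.27, and it stayed between 0.04 and 0.31 when any tumor was left out. Control replicate 2 was lowest in 4 of the 10 genes and test replicate 1 in 5, so the low tumors came from both groups.

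Among junction and adhesion genes, *Pecam1* was the steadiest. This adhesion receptor was at 45.5, 34.2 and 48.3 CPM in the control group and 47.4, 45.3 and 50.2 CPM in the test group, and its log2 fold change of 0.16 had a 95% interval from -0.40 to 0.72. *Cdh5*, which encodes VE-cadherin of the adherens junction, was at 49.8, 30.4 and 44.9 CPM in the control group and 30.8, 29.5 and 47.1 CPM in the test group, with a log2 fold change of -0.22 and a 95% interval from -0.94 to 0.50. Both intervals lie within 1 log2 unit of 0, as do those of *Pdgfb* and *Plvap*. These 4 were the only ones of the 35 tested vessel genes so narrowly bounded, beside 4395 of the 13706 genes tested, and the intervals of 32 of the 35 held 0. *Esam*, an immunoglobulin adhesion molecule, was at 7.29, 6.16 and 10.1 CPM in the control group and 9.69, 16.4 and 11.9 CPM in the test group. Its log2 fold change of 0.68 was the highest of the core and did not exceed the spread between tumors (unadjusted p = 0.105, adjusted p = 0.685, edgeR). *Cldn5*, the claudin of endothelial tight junctions, had a log2 fold change of 0.44 ± 0.55 (SE), and *Icam2*, a leukocyte ligand, of -0.63 ± 0.61 (SE).

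Among the VEGF receptors, *Kdr* (VEGFR2, the main signalling receptor) was at 17.4, 13.1 and 17.4 CPM in the control group and 8.65, 5.25 and 15.9 CPM in the test group. Test replicates 1 and 2 lay below all control tumors, and test replicate 3 lay between them. The log2 fold change of *Kdr* was -0.68 ± 0.44 (SE), with an unadjusted p of 0.166 and an adjusted p of 0.716 in edgeR's test, and it was -1.18 without test replicate 3 (unadjusted p = 0.027, adjusted p = 0.632) and -0.37 without test replicate 2. *Flt1* (VEGFR1, which also acts as a decoy) was at 9.30 to 25.8 CPM in the control group and 16.5 to 24.7 CPM in test tumors, and its log2 fold change was 0.13. *Flt4* (VEGFR3, the receptor of lymphatic growth) was at 5.22 to 10.6 CPM in the control group and 3.34 to 11.0 CPM in test tumors, and its log2 fold change was -0.35. The control range of *Flt1* held the test range, the test range of *Flt4* held the control range, and the median of the 3 receptors was -0.35.

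Both angiopoietin receptors had positive fold changes that did not pass the test. *Tek* (TIE2) was at 2.08, 4.11 and 3.84 CPM in the control group and 6.23, 7.69 and 3.61 CPM in the test group. Test replicates 1 and 2 lay above all control tumors and test replicate 3 below 2 of them, which gave a log2 fold change of 0.80 ± 0.49 (SE, unadjusted p = 0.145, adjusted p = 0.702, edgeR). *Tie1*, the co-receptor of TIE2, had a log2 fold change of 0.39 ± 0.42 (SE). *Robo4*, a guidance receptor of quiescent vessels, had a log2 fold change of -0.11 ± 0.52 (SE) and lay within a narrow band of 5.75 to 6.37 CPM in the control tumors against 2.31 to 8.60 CPM in the test tumors. *Aplnr*, the apelin receptor, was at 1.97, 11.1 and 7.25 CPM in the control group and 2.54, 29.2 and 9.76 CPM in the test group. Test replicate 2 held the highest value, and the log2 fold change of 1.02 ± 0.90 (SE) became -0.14 without that tumor.

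Of the 7 ligands and secreted factors 6 had negative fold changes, with a median of -0.77, and none had an unadjusted p under 0.05. *Angpt1*, the activating ligand of TIE2 that mural and stromal cells are known to make, was at 112.0, 8.65 and 41.1 CPM in the control group and 28.8, 14.6 and 18.7 CPM in the test group. Its log2 fold change was -1.38 ± 0.78 (SE, unadjusted p = 0.117, adjusted p = 0.694, edgeR), and it was -0.27 without control replicate 1. *Apln*, the ligand of the apelin receptor and a gene of sprouting tips, was at 112.5, 19.5 and 25.7 CPM in the control group and 8.42, 18.6 and 65.4 CPM in the test group. Control replicate 1 again held the highest value, and the log2 fold change of *Apln* turned from -0.77 to 0.45 without it. *Angpt2*, the context-dependent ligand of TIE2 stored in endothelial granules, was at 21.4, 3.57 and 12.6 CPM in the control group and 3.23, 4.03 and 11.5 CPM in the test group. Its annotated gene body lies within that of *Mcph1*. Strand use is not stated and overlap between their exons was not checked, so whether any reads are shared is not known.

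*Vegfc*, the lymphatic growth factor, was at 10.6, 1.84 and 4.37 CPM in the control group and 3.92, 1.83 and 4.24 CPM in the test group, and its log2 fold change moved from -0.75 to 0.10 without control replicate 1. *Esm1*, a tip-cell proteoglycan, was at 4.28, 0.757 and 4.05 CPM in the control group and 0.346, 0.854 and 3.71 CPM in the test group, where 3 counts stood behind the value of test replicate 1. In both groups *Esm1* and *Angpt2* thus had tumors at high and at low values. *Pdgfb*, which recruits pericytes, had a log2 fold change of -0.06 with a 95% interval from -0.95 to 0.84, and *Egfl7*, a secreted vessel matrix protein, one of 0.58 ± 0.52 (SE).

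**Figure D3:**
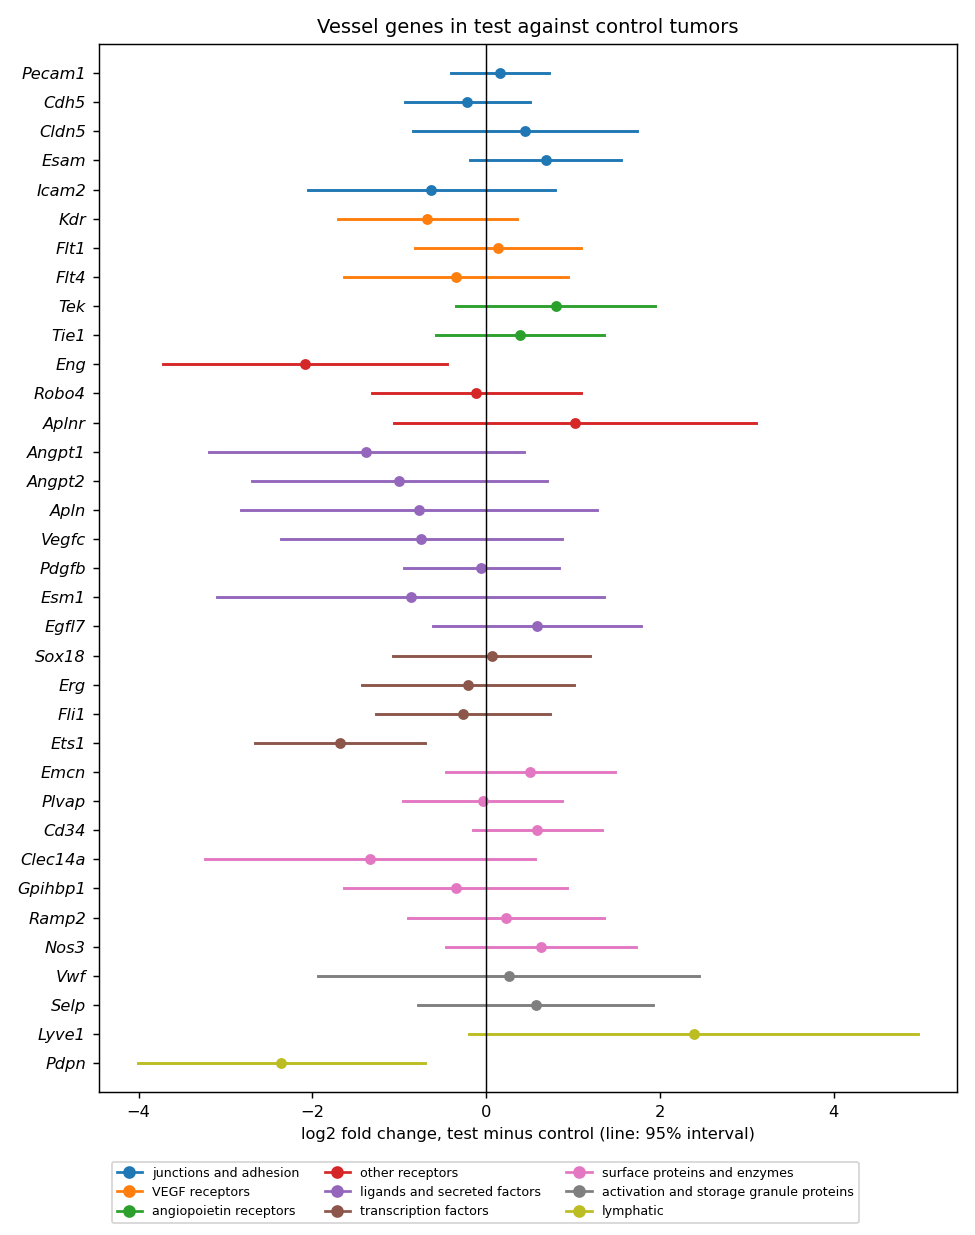
Log2 fold change of the 35 tested vessel genes, test minus control, with points for the estimates, lines for 95% intervals and colours for roles. The intervals of *Ets1*, *Eng* and *Pdpn* lie below 0 without correction for multiple testing, and those of the other 32 genes hold 0.

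Among the transcription factors, *Ets1* stood beside its ETS-family relatives *Fli1* and *Erg*. *Fli1*, which neighbours *Ets1* on chromosome 9 (chr9:32422204-32543432), was at 6.13, 5.84 and 12.7 CPM in the control group and 7.03, 5.86 and 7.64 CPM in the test group. Its log2 fold change was -0.26 ± 0.43 (SE), and that of *Erg* was -0.21 ± 0.53 (SE), each with overlapping groups. Whether the fold change of *Ets1* differs from those of *Fli1* and *Erg* was not tested. *Sox18*, a factor of vascular and lymphatic development, had a log2 fold change of 0.06 ± 0.49 (SE). *Sox17*, a factor of arterial endothelium, had 7 to 11 expected counts in each tumor and was not tested.

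Among surface proteins and enzymes, *Cd34*, a sialomucin of vessel and progenitor cells, was at 21.2, 15.2 and 20.9 CPM in the control group and 20.1, 38.1 and 28.0 CPM in the test group. Its log2 fold change was 0.59 ± 0.32 (SE, unadjusted p = 0.106, adjusted p = 0.686, edgeR), and only test replicate 1 lay within the control range. *Clec14a*, a C-type lectin of tumor endothelium, was at 28.9, 3.14 and 8.31 CPM in the control group and 2.31, 7.57 and 6.05 CPM in the test group. The log2 fold change of *Clec14a* was -1.34 ± 0.82 (SE, unadjusted p = 0.141, adjusted p = 0.700, edgeR), and it was -0.11 without control replicate 1. *Plvap*, the diaphragm protein of fenestrated vessels, was at 25.4 to 51.4 CPM in the control group and 24.6 to 52.5 CPM in test tumors. *Gpihbp1*, which holds lipoprotein lipase on capillaries, was at 24.1, 5.41 and 28.7 CPM in the control group and 14.5, 15.4 and 15.6 CPM in the test group, so that the test tumors lay close together inside the wider control range. *Emcn*, an endothelial mucin, *Nos3*, the endothelial nitric oxide synthase, and *Ramp2*, part of the adrenomedullin receptor, had log2 fold changes of 0.51 ± 0.42, 0.63 ± 0.47 and 0.23 ± 0.49 (SE). The annotated bodies of *Plvap*, *Nos3* and *Cd34* overlap those of *Gtpbp3*, *Atg9b* and *Gm16897*. These other genes reached 23.3, 9.23 and 2.13 CPM in their highest tumors. Overlap between exons was not checked, so whether any reads are shared is not known.

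Neither tested gene of endothelial activation passed the test. *Vwf*, the clotting protein of endothelial granules, was at 6.13, 2.27 and 11.2 CPM in the control group and 18.4, 1.47 and 3.50 CPM in the test group. Test replicate 1 held the highest value and test replicate 2 the lowest, and the log2 fold change of *Vwf* turned from 0.26 to -1.38 without test replicate 1. *Selp*, the P-selectin gene, was at 0.746 to 2.08 CPM in the control group and 1.91 to 3.17 CPM in test tumors, and its log2 fold change was 0.57 ± 0.58 (SE). *Sele*, the E-selectin gene of inflamed endothelium, had 0 to 3 counts in each tumor, at or under the floor of 3 counts that the depth allows, so no fold is given. The floor covers counting error only.

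The lymphatic genes did not move together. *Lyve1* (NCBI Gene 114332, chr7:110850607-110862953), a hyaluronan receptor of lymphatic endothelium that some macrophages also carry, was at 0.347, 0.865 and 4.05 CPM in the control group and 10.8, 16.0 and 1.06 CPM in the test group. Test replicates 1 and 2 lay above all control tumors, and test replicate 3 lay among them. The log2 fold change was 2.39 ± 1.11 (SE), the highest of the 35 genes, with an unadjusted p of 0.065 and an adjusted p of 0.635 in edgeR's test. It was 3.89 without control replicate 3 (unadjusted p = 0.016, edgeR), 2.94 without test replicate 3 (unadjusted p = 0.017) and 1.75 without test replicate 2 (unadjusted p = 0.213), so its size and its p rested on single tumors. The sum of 5 adipocyte markers was 0.347, 6.49 and 3.41 CPM in the control group and 233.0, 52.0 and 1.70 CPM in the test group, and skeletal muscle markers summed to 6.83, 162.5 and 4.37 CPM in the control group and 874.8, 160.8 and 79.7 CPM in the test group. The 2 tumors with high *Lyve1* were thus the 2 with the most adipocyte RNA, and the part of that tissue in the value was not tested. *Prox1*, the transcription factor of lymphatic fate, had 2, 38 and 4 counts in the control group and 0, 1 and 7 in the test group. The tumor with most *Prox1*, control replicate 2, had 8 counts of *Lyve1*, and *Pdpn* was highest in control replicate 3.

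**Figure D4:**
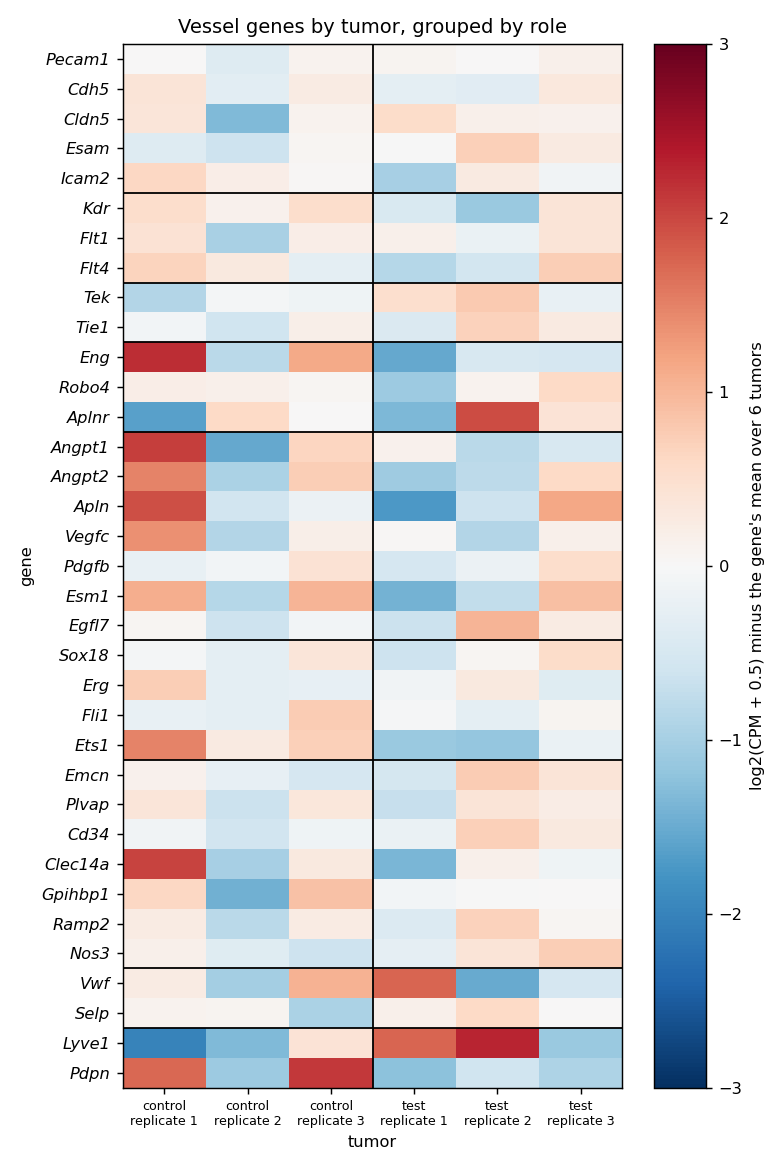
Log2(CPM + 0.5) of the 35 tested vessel genes in each tumor, minus the mean of the gene over the 6 tumors, with black lines between roles and between the groups. Control replicate 1 is dark red for *Eng*, *Angpt1*, *Apln* and *Clec14a*, and *Lyve1* is red in test replicates 1 and 2.

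The highest and lowest values of many genes fell in the same few tumors. Control replicate 1 was the highest tumor for 12 of the 35 genes (34.3%, beside 21.2% of all tested genes), and control replicate 2 was the highest for 0 (beside 12.6%), while test replicate 2 was the highest for 11 (31.4%, beside 25.7%). Test replicate 1 was the lowest for 14 (40.0%, beside 17.7%) and control replicate 2 for 10 (28.6%, beside 13.3%). The median SE of the log2 fold change was 0.52 for the vessel genes against 0.38 for all tested genes, and 28 of the 35 estimates lay within 1 log2 unit of 0 (80.0%, beside 87.6%). The sum of all 38 genes was 1176, 381.9 and 864.1 CPM in the control group and 388.4, 528.4 and 589.8 CPM in the test group. *Eng*, *Pdpn*, *Ets1*, *Angpt1* and *Apln* made up 64.4%, 35.8% and 54.2% of it in the control and 24.7%, 23.1% and 31.7% in the test tumors. The other 33 genes summed to 419.1, 245.1 and 395.8 CPM in the control group and 292.3, 406.5 and 402.8 CPM in test tumors. The groups overlapped in the sum of all 38 genes and in that of the 33. The genes set apart were picked by name with earlier results of these data known, so this split is a description only.

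**Figure D5:**
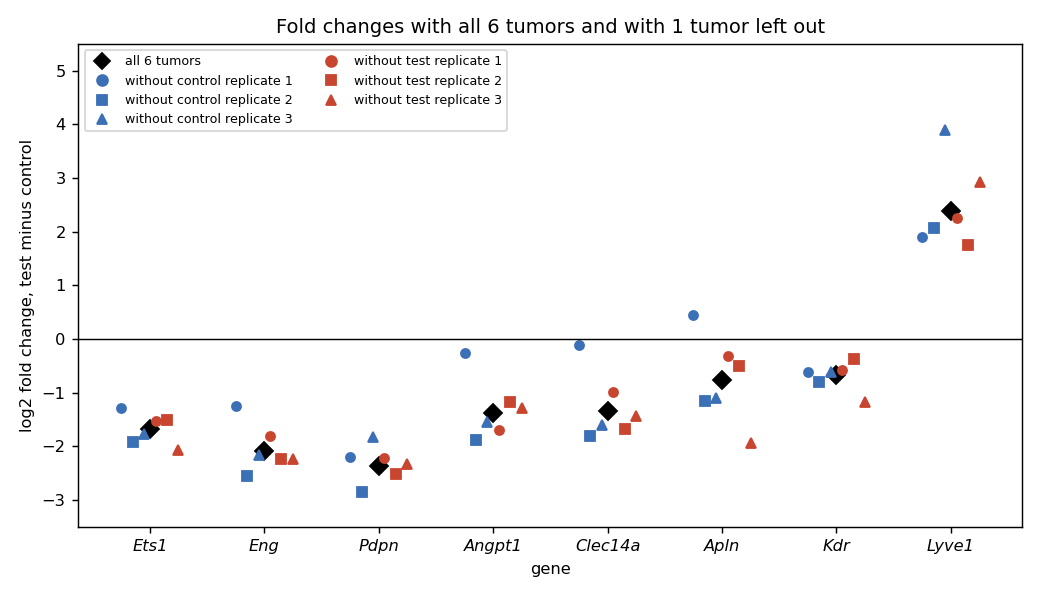
Log2 fold changes of 8 vessel genes, test minus control, with all 6 tumors as black diamonds and with 1 tumor left out as coloured symbols. *Ets1*, *Eng* and *Pdpn* stay at -1.25 or below in every case, whereas *Angpt1*, *Clec14a* and *Apln* lie at -0.27, -0.11 and 0.45 without control replicate 1.

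To set each gene beside the endothelial core, log2(CPM + 0.5) was taken minus the mean of the 10 core genes in the same tumor. As *Pdpn*, *Eng* and *Ets1* are also known from other cells, such values are not levels within endothelium. For the 25 tested genes outside the core, the groups then did not overlap for *Ets1*, *Eng* and *Pdpn*, lower in test (3 of 25, beside 5.7% of the tested genes outside the core), and for *Cd34*, higher in test (1 of 25, beside 1.4%). Relative *Ets1* was 3.42, 3.02 and 2.95 in the control group and 1.63, 0.76 and 1.87 in the test group. Control replicate 2 no longer fell within the test range of *Eng*, where it was 2.08 against at most 1.72 in test tumors, or of *Pdpn*, where it was 1.66 against at most 1.51. The margin by which *Pdpn* was apart is small beside its SD of 1.39 in the control tumors. Relative *Cd34* was 0.80, 1.15 and 1.07 in control and 1.53, 1.61 and 1.32 in test replicates, a difference of 0.48 on the log2 scale. Since core genes and the other genes share the tumors, these are descriptions without a test.

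A wider list of 50 other vessel genes, 43 of them tested, had 20 positive and 23 negative fold changes and a median log2 fold change of -0.05. No gene of it reached the adjusted threshold. At an unadjusted p under 0.05, 1 was lower and 0 were higher, beside 5.26% and 3.15% of all tested genes. The lower gene was *Icam1*, an adhesion molecule for leukocytes that many cell types express. It was at 39.7, 19.9 and 50.5 CPM in the control group and 9.57, 12.2 and 9.44 CPM in the test group. The groups of *Icam1* did not overlap, its log2 fold change was -1.82 ± 0.39 (SE, unadjusted p = 0.0017, adjusted p = 0.394, edgeR), and without control replicate 2 it was -2.11 with an adjusted p of 0.0304. Groups were also apart for 5 genes of the list that were higher in test (*Ackr1*, *Notch4*, *Ptprb*, *She* and *Procr*), none with an unadjusted p under 0.05. These are 5 of 43 genes higher and 1 of 43 lower, beside 6.12% and 5.86% of all tested genes. *Ackr1*, the venular chemokine receptor, was at 0, 0.757 and 0.106 CPM in the control group and 1.96, 1.47 and 1.17 CPM in the test group.

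Of the tested VEGF ligands and co-receptors of that list none had an unadjusted p under 0.05. *Vegfa*, the main angiogenic ligand, was at 289.4, 40.2 and 78.8 CPM in the control group and 44.2, 21.5 and 127.8 CPM in the test group, with a log2 fold change of -1.08 ± 0.84 (SE, unadjusted p = 0.239, adjusted p = 0.762, edgeR). Like *Apln*, *Vegfa* was highest in control replicate 1, and test replicate 3 was the highest of the test tumors for both. The other ligands *Vegfb* and *Pgf* had log2 fold changes of -0.14 and 0.37, and the co-receptors *Nrp1* and *Nrp2* of 0.35 and 0.01. *Vegfd*, which did not pass the filter on low counts, was at 0.232 to 0.433 CPM in the control group and 0.743 to 3.11 CPM in test tumors, groups that did not overlap. The other largest estimates of the list were 1.17 for *Ecscr* and 0.80 for *Procr* among the positive, and -1.19 for *Lmo2* and -1.01 for *Calcrl* among the negative, none with an unadjusted p under 0.05.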

How the data were processed

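Whole-tumor RNA of 3 test and 3 control mice was sequenced, and groups were taken from the labels. The authors deposited, per tumor and gene, an expected count that is not normalized and an FPKM normalized for length and depth, with the gene length. The submitters' processing notes name Bowtie, BWA, RSEM and mm10 without their order. The annotation release, adapter filters and strand use are not given in the sources used here. Of 18460 genes, 18400 were matched by NCBI Gene identifier to GRCm38. Genes not listed in a tumor were set to 0, and whole numbers made up 79.01% to 80.06% of the values. The floor of 3 counts equals 0.3175 to 0.3583 CPM of the total counts and covers counting error only.

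Rounded expected counts entered edgeR 4.0.16 under R 4.3.3 (filterByExpr, TMM, quasi-likelihood test, Benjamini-Hochberg adjustment over 13706 genes, threshold 0.05, no covariate). The common biological coefficient of variation was 0.434. The SE is the log2 fold change over the square root of F, and 95% intervals follow from it. Exact permutation tests used the mean of log2(CPM + 0.5). As the tumors come from different mice, edgeR's test sets the group difference against the spread between mice. Vessel genes and all lists were chosen with earlier results of these data known. All 38 genes are accounted for. From the wider list the VEGF ligands and neuropilins and the 3 largest estimates in each direction among the other tested genes are named, while *Notch4*, *Ptprb* and *She* were named after their values were seen. Marker lists are described by their sums, with single markers as examples chosen after their values were seen.

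The alternatives were RLE, DESeq2 1.42.0, no filter, a minimum of 10 counts per tumor, limma 3.58.1 with its trend option on log2(FPKM + 1) and log2(FPKM + 0.1) at a mean FPKM of at least 1, a replicate block, a pooled Poisson test (false discovery rate 0.001 and log2 ratio 1), a core of 3 genes, and leaving out each tumor. Leaving out control replicate 2 and test replicate 1 together, the tumor of each group with the most skeletal muscle RNA, was chosen after the data were seen. The scripts were tested on simulated data.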

Additional observations from a re-analysis of the deposited data

How the results depend on the processing

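Direction was counted over 13 alternatives. The pooled Poisson test and the fit without both control replicate 2 and test replicate 1 were not among them. Of the 35 tested vessel genes, 22 kept their direction in each counted alternative that gave a value (11 lower and 11 higher) and 13 did not. Genes called numbered 0 with all 6 tumors, 344 with DESeq2, 1 with limma-trend on log2(FPKM + 1), 2098 with the pooled Poisson test, which holds no spread between tumors, and 0 to 182 when 1 tumor was left out. Vessel genes called numbered 2 of 38 with DESeq2 (*Ets1*, -1.68, and *Pdpn*, -2.36), beside 344 of 18436 genes. With the Poisson test they numbered 7 of 38, beside 2098 of the same 18436 genes. They numbered 0 to 1 when 1 tumor was left out. The 1 was *Pdpn* at -2.86 without control replicate 2, beside 182 of 14166 genes. The cause was not tested. Vessel genes at an unadjusted p under 0.05 numbered 3 in the comparison as reported, 2 to 6 when 1 tumor was left out (6 without control replicate 2, with *Angpt1*, *Clec14a* and *Gpihbp1* added, and 5 without test replicate 3, with *Kdr* and *Lyve1* added) and 6 when the tumor highest in skeletal muscle markers was left out of each group. Beside 17.1%, 14.3% and 17.1% of the vessel genes in these 3 cases stood 14.3%, 7.67% and 16.2% of all tested genes. *Cd34* had an unadjusted p under 0.05 without test replicate 1. Replicate numbers did not pair the tumors, since same-numbered tumors had correlations of deviations of -0.03, 0.112 and -0.138. With a replicate block 1 vessel gene, *Ets1*, had an unadjusted p under 0.05, and *Vwf* turned to -0.24. With 1 tumor left out, log2 fold changes ran from -0.19 to 0.42 for *Flt1*, -0.54 to 0.26 for *Robo4*, -0.14 to 1.58 for *Aplnr*, -1.95 to 0.45 for *Apln*, -1.16 to 0.10 for *Vegfc*, -0.40 to 0.17 for *Pdgfb*, -0.28 to 0.34 for *Sox18*, -0.43 to 0.27 for *Erg*, -0.46 to 0.19 for *Fli1*, -0.30 to 0.22 for *Plvap*, -0.80 to 0.04 for *Gpihbp1*, -0.13 to 0.47 for *Ramp2* and -1.38 to 0.89 for *Vwf*, and *Sox18* was -0.01 on log2(FPKM + 0.1). With a core of 3 genes, 4 genes were lower and 1 higher without overlap relative to it, against 3 and 1. The added gene was *Kdr*, at -0.679, -0.533 and -0.744 in control and -1.316, -2.321 and -0.935 in test replicates. The share over all genes was not taken for this core. With 1 tumor left out, the median of the vessel genes ran from -0.28 to 0.17. Depth limits *Sele*, *Prox1* and *Sox17*, which had too few counts to test.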

Other observations

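Mural cells, which wrap vessels, and red cells, which fill them, were also followed. Markers of pericytes and vessel smooth muscle summed to 217.1, 229.8 and 703.9 CPM in control replicates 1, 2 and 3 and to 602.8, 196.6 and 235.6 CPM in test replicates 1, 2 and 3. *Myh11*, a smooth muscle myosin, was the largest part of the 2 high sums, at 461.1 CPM in control replicate 3 and 281.8 CPM in test replicate 1. The pericyte genes *Rgs5*, *Pdgfrb* and *Cspg4* had log2 fold changes of -0.85, -0.64 and -0.88, with unadjusted p of 0.08, 0.12 and 0.09 in edgeR's test. Those of *Kcnj8* and *Abcc9* were -0.46 and -0.17, with unadjusted p of 0.48 and 0.69 in the same test. *Higd1b* did not pass the filter on low counts. *Des*, which encodes desmin of smooth and skeletal muscle, had the lowest p of the list and a fold change of the opposite sign, 2.28 (unadjusted p = 0.054), and *Notch3*, a receptor of mural cells, one of 0.24. *Des* was at 2.55, 30.8 and 4.47 CPM in the control and 118.5, 45.7 and 20.5 CPM in the test tumors. Of the 8 tested mural genes 6 had negative fold changes, beside 6648 of all 13706 tested genes, and none had an unadjusted p under 0.05.

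Erythroid markers summed to 489.6, 136.9 and 481.6 CPM in control and 340.0, 425.9 and 328.3 CPM in test replicates 1, 2 and 3, lowest in control replicate 2, which also had the lowest core sum. Markers of platelets and megakaryocytes summed to 4.11 to 8.74 CPM in control and 4.24 to 13.7 CPM in test tumors. Only 3 of those 7 genes passed the filter, and *Gp9* had no reads in the control tumors. The ratio of *Angpt2* to *Angpt1* CPM was 0.19, 0.41 and 0.31 in control and 0.11, 0.28 and 0.61 in test replicates.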
